A study of Rattus norvegicus with 3 samples.

Results

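The 10 genes described here serve the concentration of urine. They are the vasopressin receptor gene Avpr2, the water channel genes Aqp1, Aqp2, Aqp3, Aqp4 and Aqp7, the urea carrier gene Slc14a2, the osmolyte genes Akr1b1 and Slc5a3, and Nfat5, which encodes a transcription factor that responds to tonicity. A gene belonged to them if a probe other than a control carried one of its RefSeq accessions. All 10 were among the 14179 genes tested.

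Kidney RNA from male Sprague-Dawley rats whose water held γ-aminobutyric acid (GABA) at 200 ppm during 3 weeks (G200) was hybridized on 3 Agilent arrays against that of the negative control, at 0 ppm. The rats were 5 weeks old at purchase and were acclimated for 1 week. Green (Cy3) was the dye of the control on each array, and red (Cy5) that of G200. No array had the reverse labelling, so an effect of the dye and an effect of GABA cannot be told apart. The labels give 3 rats per group and call the tissue a non-tumor region, and the methods give a larger group. All values are log2 ratios of G200 over the control after loess normalization within each array, so that values above 0 stand for more RNA in G200. A gene was called when limma's test of the mean ratio of the 3 arrays against 0 gave an adjusted p under 0.05.

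Water is taken up from the filtrate through aquaporins. Aqp1 works without hormone in the proximal tubule and thin descending limb, and Aqp2 is placed in the apical membrane of collecting duct principal cells when vasopressin binds Avpr2 and raises cAMP. Urea carriers help to build the salty medulla, whose cells hold sorbitol and myo-inositol as osmolytes, made or imported by products of genes that Nfat5 can activate.

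Compared with the negative control, Aqp1 and Aqp7 were higher in G200 and Slc14a2 and Slc5a3 were lower, the latter pair with a sign that turned under other scalings of the dyes. The other 6 genes, among them all 3 collecting duct water channels and the vasopressin receptor, were not called. Thus 4 of 10 members were called, where 37.5% of all genes tested were called. By direction, 2 of 10 were higher, against 11.6% of all genes, and 2 of 10 were lower, against 25.9%. The total count was close to the share among all genes. The median log2 ratio was 0.07 over the 10 members and -0.05 over all genes, and 7 of the 10 had the same sign on all 3 arrays, as did 68.3% of all genes. No member reached a mean ratio of 2-fold, the methods' limit, which 4.06% of all genes passed together with limma's p under 0.05 before adjustment. At that p without a limit on the fold, limma's test passed 6 of the 10 members and 49.1% of all genes. Run on the log ratios of the arrays, the methods' t-test passed 3 of 10 and 31.6% of all genes, and run between the channels it passed 4 of 10 and 29.7%. A gene that was not called is not shown to be unchanged. Without replicate 1, 2 or 3 the share of all genes called was 24.8%, 35.0% and 11.4% in place of 37.5%, so calls lost in this way, as given below for single genes, came with fewer calls in general. In RNA of kidney tissue, fewer cells of a type and less RNA per cell cannot be told apart.

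**Figure D1:**
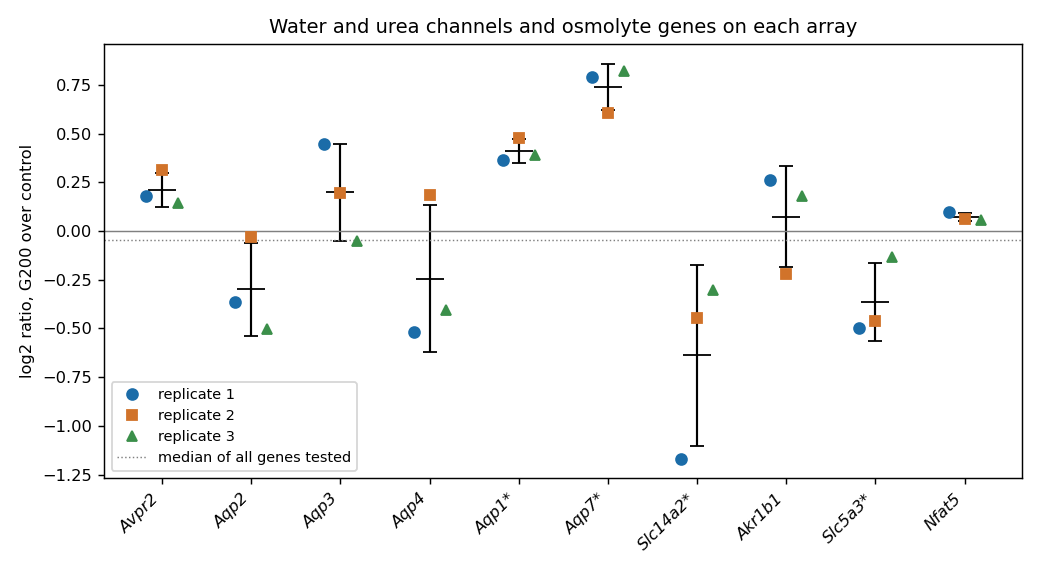
Log2 ratio of G200 over control (vertical axis) of each member on the 3 arrays, with symbols for replicates, a bar for the mean and whiskers for the SD (n = 3). Asterisks mark an adjusted p under 0.05, and the dotted line is the median of all genes tested (-0.05). Aqp1 and Aqp7 lie above 0 and Slc14a2 and Slc5a3 below 0 on every array, while Aqp3, Aqp4 and Akr1b1 have arrays on both sides.

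Promoter sequences were available for 7 of the 10 members in the RefSeq table of the rat assembly GRCr8. Aqp7, Akr1b1 and Nfat5 had no entry. The 250 bases before each start were searched on both strands for TGGAAA, the core of the tonicity element bound by the Nfat5 protein, for the cAMP element TGACGTCA, and for its core TGACG, which lies within the longer element. TGGAAA was found in 19.7% of the 33469 promoters of the table, TGACGTCA in 1.59% and TGACG in 18.2%. Among the members, TGGAAA was found in Aqp4 alone, with 1 match in one of its promoters and 2 in the other. TGACG was found in Aqp2 alone, 226 bases before the start and on the opposite strand. TGACGTCA was found in none of the 9 member promoters. A match describes the letters in this window and not a site in use. Shown are the promoter with the cAMP core, with the match in capitals, and those of Aqp1 and Slc5a3, of which the first was called higher and the second lower and which held none of the motifs. They lie at chr7:132590036-132590285 (Aqp2), chr4:85812534-85812783 (Aqp1) and chr11:44799537-44799786 (Slc5a3), each on the + strand.
Aqp2: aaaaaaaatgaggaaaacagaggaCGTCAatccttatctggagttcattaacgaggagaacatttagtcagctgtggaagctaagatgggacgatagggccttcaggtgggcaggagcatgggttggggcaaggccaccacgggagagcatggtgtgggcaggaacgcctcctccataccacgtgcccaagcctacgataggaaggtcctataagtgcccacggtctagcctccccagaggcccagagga
Aqp1: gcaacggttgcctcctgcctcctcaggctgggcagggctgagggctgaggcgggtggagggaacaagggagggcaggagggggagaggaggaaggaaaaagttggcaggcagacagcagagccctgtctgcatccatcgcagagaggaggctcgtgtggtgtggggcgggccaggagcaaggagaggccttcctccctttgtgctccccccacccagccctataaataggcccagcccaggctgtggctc
Slc5a3: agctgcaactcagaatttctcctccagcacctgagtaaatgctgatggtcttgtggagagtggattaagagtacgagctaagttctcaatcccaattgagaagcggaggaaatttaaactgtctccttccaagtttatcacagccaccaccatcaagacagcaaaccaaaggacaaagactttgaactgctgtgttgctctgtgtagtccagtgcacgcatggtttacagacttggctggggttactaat

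Avpr2, the receptor through which vasopressin acts on the collecting duct, had log2 ratios of 0.18, 0.31 and 0.14 on replicates 1, 2 and 3. All 3 arrays were above 0, with a mean of 0.21 ± 0.09 (SD, n = 3) and a 95% confidence interval of 0.04 to 0.38. The gene missed the threshold after adjustment (adjusted p = 0.0559). It was called with no background correction (adjusted p = 0.0477) and under both alternatives to the loess scaling, and over all 15 alternatives the adjusted p ran from 0.00707 to 0.173.

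Aqp2, the water channel that vasopressin moves to the apical membrane, had log2 ratios of -0.37, -0.03 and -0.50. All were below 0, but replicate 2 was close to it, and the mean of -0.30 ± 0.24 was not called (adjusted p = 0.0605). Without replicate 2 the mean was -0.43 and was called (adjusted p = 0.0205). The alternatives ranged from 0.00973 to 0.315 in adjusted p, and the sign turned with the scaling between the dyes, as described further on. Aqp3, a basolateral channel for water and glycerol, had ratios of 0.45, 0.20 and -0.05, a mean of 0.20 ± 0.25 (adjusted p = 0.175). Aqp4, the other basolateral water channel, had ratios of -0.52, 0.18 and -0.40, a mean of -0.25 ± 0.38 (adjusted p = 0.205). Without replicate 2 its mean was -0.46 and was called (adjusted p = 0.0174), and its adjusted p ran from 0.011 to 0.594 over all 15 alternatives. The arrays disagreed in sign for both basolateral channels, and they did so in different replicates, since Aqp3 was lowest on replicate 3 and Aqp4 was highest on replicate 2. Aqp4 had 2 further probes, with ratios of -0.15, 0.28 and -0.16 and of -0.50, 0.05 and -0.37. All 3 Aqp4 probes thus had a positive ratio on replicate 2 and negative ratios on replicates 1 and 3.

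Principal cell markers gave a measure of the cells that carry these channels. Of 7 listed genes, 6 were tested and 1 was called, higher, where 11.6% of all genes were called higher and 25.9% lower. This was Tfcp2l1, a transcription factor of the collecting duct, at 0.29 ± 0.12 (adjusted p = 0.0281). Its call was lost without any one of the replicates (adjusted p from 0.0807 to 0.107). The list had a median of 0.12, with 4 genes above 0 and 2 below. Its medians on replicates 1, 2 and 3 were 0.29, 0.08 and -0.06. Its brightest gene, Hsd11b2, which protects the mineralocorticoid receptor from glucocorticoids, had ratios of 0.44, -0.13 and -0.03, and the lowest ratio was that of Elf5 at -0.17 ± 0.25. The summed signal of the list was 3923, 3826 and 3838 intensity units in the control channels and 5146, 3966 and 3855 in the G200 channels. Fxyd4 had no matched probe. The part of these cells in the ratios of Aqp2, Aqp3 and Aqp4 was not tested.

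Aqp1, the constitutive water channel of the proximal tubule and thin descending limb, had log2 ratios of 0.36, 0.48 and 0.39. The 3 arrays lay close together, and the mean of 0.41 ± 0.06 (1.33-fold, 95% confidence interval 0.25 to 0.57) was called (adjusted p = 0.00631). Aqp7, which passes water and glycerol in the late proximal tubule, had ratios of 0.79, 0.61 and 0.82. It had the highest mean of the 10 members, 0.74 ± 0.12 (1.67-fold, 95% confidence interval 0.56 to 0.92), and was called (adjusted p = 0.00153). Both genes were above 0 under the 8 alternatives that changed their ratio. Over all 15, 4 of which changed only the test, they had adjusted p from 0.00372 to 0.119 for Aqp1 and from 6e-04 to 0.12 for Aqp7. The call of Aqp1 was lost without replicate 3 (mean 0.42, adjusted p = 0.0599). Neither gene was called with the methods' t-test after adjustment. On the log ratios it called 2 of 14179 genes, which says nothing about the stability of either gene. Between the channels it called 353 genes, and Aqp1 (adjusted p = 0.0587) and Aqp7 (adjusted p = 0.0996) were not among them. Before adjustment both genes had a p under 0.05 in either run of it.

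Of 9 proximal tubule markers tested, 2 were called higher and 1 lower, where 11.6% and 25.9% of all genes were, and the median was 0.06. The highest ratio was that of Slc5a2, the luminal glucose carrier, at 0.66 ± 0.81, which was not called (adjusted p = 0.105) and had ratios of 1.59, 0.16 and 0.22. Miox, the brightest gene and an enzyme that breaks down myo-inositol, was called lower at -0.25 ± 0.10 (adjusted p = 0.0368). Its call was lost without any one of the replicates (adjusted p from 0.0865 to 0.151), and it turned positive under both other scalings of the dyes. Against the median of all genes it lay between -0.25 and 0.38 over the alternatives. The summed signal of the list was 79670, 68890 and 72710 in the control channels and 70480, 62680 and 66860 in the G200 channels. This sum rested mostly on Miox, while the list median was above 0. The mean control log2 intensity was 15.60 for Miox and at most 13.03 for the others. The list medians on replicates 1, 2 and 3 were 0.32, 0.0018 and -0.15. The part of proximal tubule cells in the ratios of Aqp1 and Aqp7 was not tested. Slc5a12 did not pass the filter on dim probes.

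Aqp7 is also a glycerol channel of fat cells, and Aqp1 is abundant in red cells and in some capillaries. None of the 3 adipose markers tested was called by limma's test (37.5% of all genes), and none had an unadjusted p under 0.05 (49.1%). Their ratios were -0.06 ± 0.25 for Adipoq, the brightest, -0.06 ± 0.13 for Cidec and 0.14 ± 0.34 for Fabp4. The summed adipose signal was 412.6, 397.7 and 396.4 in the control channels and 441.7, 374.5 and 415.4 in the G200 channels. Plin1 had no matched probe and Lep did not pass the filter. The red cell marker Hbb, the brighter of the 2 tested, had ratios of 0.14, -0.08 and -1.23. Its mean was -0.39 with the brighter of its 2 probes and -0.20 with the mean over both. The summed red cell signal was 31470, 34510 and 40090 in the control channels and 34690, 32630 and 17090 in the G200 channels. Ank1 had no matched probe. Endothelial markers had a median of -0.13, and 1 of 6 was called, lower, where 25.9% of all genes were. This was Pecam1, an adhesion molecule of endothelial cells, at -0.56 ± 0.05 (adjusted p = 0.00235). It turned positive under both other scalings, though it stayed below the median of all genes, with differences of -0.55 to -0.13. The brightest endothelial gene, Plvap, had a mean of -0.20 ± 0.16 and the highest ratio was that of Emcn, at 0.14 ± 0.10, neither of them called. The summed endothelial signal was 7929, 7481 and 7629 in the control channels and 7824, 6133 and 6532 in the G200 channels. The part of fat, red and endothelial cells in the ratios of Aqp1 and Aqp7 was not tested.

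Slc14a2, the urea carrier of the inner medullary collecting duct and the thin descending limb, had log2 ratios of -1.17, -0.45 and -0.30. All 3 arrays were below 0, but replicate 1 stood far below the others. The mean of -0.64 ± 0.46 (1.56-fold lower, 95% confidence interval -1.04 to -0.24) was called (adjusted p = 0.0279). Without replicate 1 the mean was -0.37 and was called (adjusted p = 0.0221). The call was lost without replicate 2 (-0.73, adjusted p = 0.0622) and without replicate 3 (-0.81, adjusted p = 0.0537). Over all 15 alternatives the adjusted p ran from 0.0221 to 0.905, and the gene was called lower in 5 of them. A second, dim probe for another transcript of Slc14a2 had ratios of -0.21, 0.08 and -0.02. The 2 probes of this gene thus disagreed, and with their mean in place of the brighter probe the ratio was -0.34 (adjusted p = 0.0615).

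Inner medulla markers were taken as a measure of the tissue around this carrier. With limma, none of the 4 genes tested was called, where 37.5% of all genes were. None had an unadjusted p under 0.05, where 49.1% of all genes did, and the list median was 0.04. Cryab, a small heat shock protein and the brightest of them, had ratios of -0.07, -0.15 and 0.36. Krt19, an epithelial keratin, had the lowest mean, -0.18 ± 0.31, and Ptgs1, the constitutive cyclooxygenase, the highest, 0.12 ± 0.18. The summed signal of the list was 14450, 12850 and 13690 in the control channels and 13780, 11590 and 17440 in the G200 channels. It was highest in the G200 channel of replicate 3, the array on which Slc14a2 fell least, but it rested mostly on Cryab. The mean control log2 intensity was 13.67 for Cryab and at most 8.02 for the others. The list medians on replicates 1, 2 and 3 were 0.06, -0.14 and 0.10. Replicate 1, on which Slc14a2 was lowest, was also the array with the highest ratios of podocyte markers, genes of the glomerulus in the cortex. The podocyte medians were 0.72, 0.06 and 0.24 on replicates 1, 2 and 3, and the summed podocyte signal was 1331, 1324 and 1288 in the control channels and 2164, 1416 and 1540 in the G200 channels. Of the 5 podocyte genes 1 was called, higher, where 11.6% of all genes were called higher. The brightest, Podxl, had a mean of 0.36 ± 0.34, the highest mean was that of Wt1 at 0.53 ± 0.55 and the lowest that of Synpo, close to 0. The part of the share of cortex and medulla in the fall of Slc14a2 was not tested.

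Among the osmolyte genes, Slc5a3, the sodium-coupled carrier that imports myo-inositol, had log2 ratios of -0.50, -0.46 and -0.13. All 3 arrays were below 0, and the mean of -0.36 ± 0.20 (1.29-fold lower, 95% confidence interval -0.59 to -0.14) was called (adjusted p = 0.0249). The call was lost without replicate 1 (-0.30, adjusted p = 0.0765) and without replicate 2 (-0.32, adjusted p = 0.0922), and over all 15 alternatives the adjusted p ran from 0.0204 to 0.594. The single spot of Slc5a3 was dimmer in both channels of replicate 1 than on the other arrays. Its control channel had a normalized log2 intensity of 9.65 on replicate 1, 10.48 on replicate 2 and 10.46 on replicate 3. Without the pairing of the channels by array, the adjusted p of Slc5a3 was 0.449. Akr1b1, aldose reductase, which makes sorbitol from glucose, had ratios of 0.26, -0.22 and 0.18. Replicate 2 went against the other arrays, and the mean of 0.07 ± 0.26 was not called (adjusted p = 0.608, 95% confidence interval -0.18 to 0.33). The only probe of Akr1b1 was dim. Before normalization its signal above background was 55.8, 57.8 and 53.9 in the control channels and 175.9, 43.25 and 108.8 in the G200 channels. The deposited log ratios of Akr1b1, put on the log2 scale, were larger in size, at 0.59, -0.44 and 0.53. Nfat5 itself had ratios of 0.10, 0.06 and 0.06, the smallest spread of the 10 members, with a mean of 0.07 ± 0.02 (adjusted p = 0.403, 95% confidence interval -0.08 to 0.23). Its second probe, which did not pass the filter, had ratios of 0.06, 0.09 and 0.02.

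**Figure D2:**
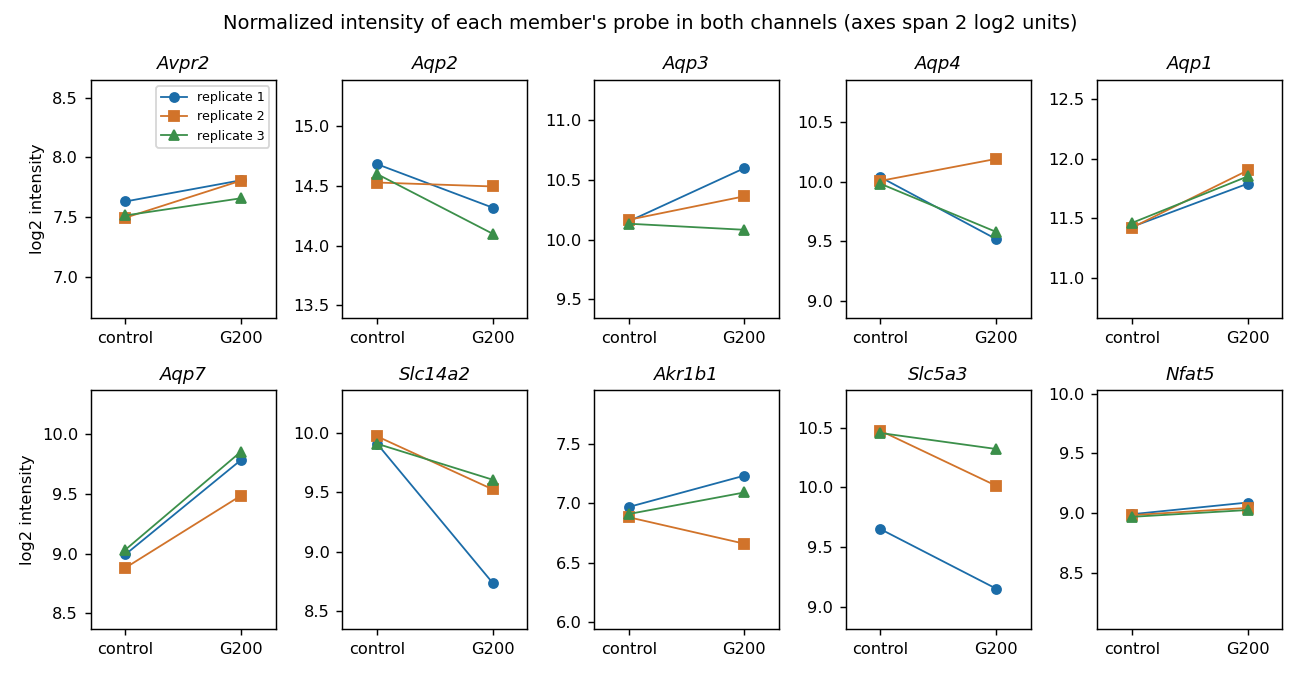
Normalized log2 intensity (vertical axis, 2 log2 units in every panel) of each member's probe in the control and G200 channels of the 3 arrays, with a line for each array. The control values lie close together in every panel except that of Slc5a3, where replicate 1 is at 9.65 and the others are at 10.48 and 10.46.

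The SD between arrays was higher in the G200 than in the control channels for each member, by little for Avpr2 (0.076 and 0.069) and Nfat5 (0.018 and 0.013). With each colour scaled on its own arrays, the SD of the control channels was 0.013 to 0.073 for 9 members and 0.447 for Slc5a3, and that of the G200 channels was 0.018 to 0.63. Over 1126 probes with at least 5 spots, the variance between arrays was a median of 0.56 times that between replicate spots in the control channels and 5.85 times in the G200 channels. For this reason the controls of the 3 arrays were counted as 1 sample, and differences among control rats were not tested. Some control signals besides that of Slc5a3 differed more between arrays. The summed liver signal was 48260, 81100 and 88920, and that of Slc12a3 was 397.2, 226.9 and 258. Whether the 3 controls were the same RNA was not tested. The p-values and confidence intervals from limma rest on the spread of the ratios between the 3 arrays, drawn toward that of all genes (moderated). For Nfat5 the SD of the ratios was 0.02 and the moderated standard error was 0.063. For Slc14a2 the SD was 0.46 and the moderated standard error was 0.165. The call of Slc14a2 and the interval of Nfat5 thus do not rest on the gene's own spread alone. For Slc5a3 the SD of the ratios was 0.20, below that of either channel, so its p rests on the pairing of the channels by array.

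Probes for 4 members were printed 10 times on each array, which allowed a comparison of the spread between spots with that between arrays. All Aqp1 spots without an outlier mark were above 0, from 0.24 to 0.44 on replicate 1, from 0.41 to 0.56 on replicate 2 and from 0.32 to 0.50 on replicate 3. The ranges overlapped, and the rise of Aqp1 was present in every one of these spots. The Aqp3 spots lay between 0.37 and 0.53 on replicate 1 and between -0.19 and 0.10 on replicate 3, with no overlap, while those of replicate 2, from 0.06 to 0.33, overlapped replicate 3. The Akr1b1 spots lay between 0.12 and 0.38 on replicate 1 and between -0.40 and -0.07 on replicate 2, again with no overlap, while those of replicate 3, from -0.015 to 0.31, overlapped replicate 1. Nfat5 spots had similar ranges on the 3 arrays, from 0.0033 to 0.20, from -0.04 to 0.20 and from -0.05 to 0.18.

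**Figure D3:**
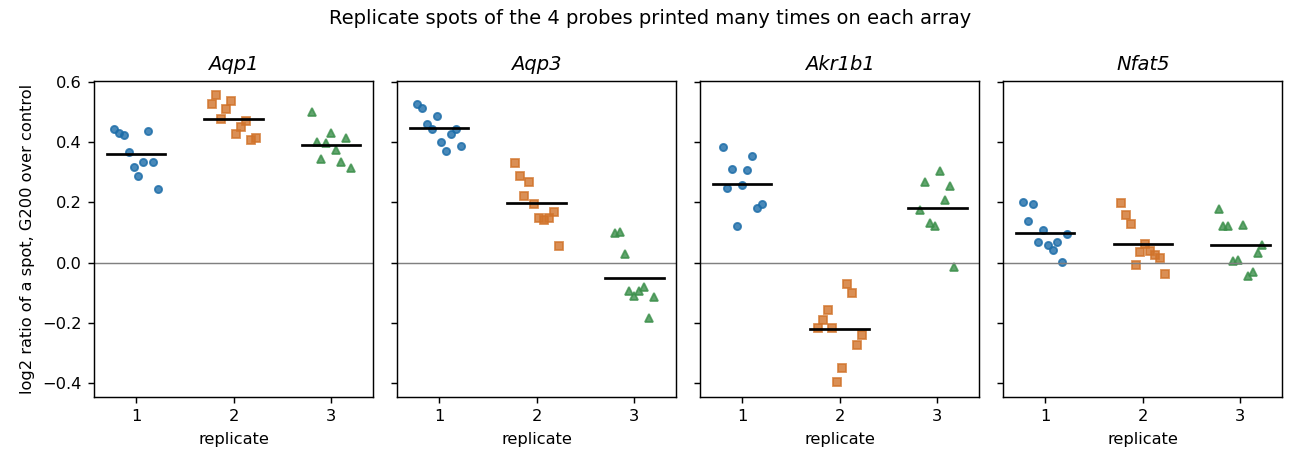
Log2 ratio of G200 over control (vertical axis) of every replicate spot without an outlier mark for 4 members, by replicate (horizontal axis), with black lines for the means. All Aqp1 spots lie above 0, while those of Aqp3 and Akr1b1 lie on both sides of 0.

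The scaling between the dyes decided the sign of several members. The median of all genes was -0.05 with loess, 0.27 with median centring of each array and 0.62 when the dyes were left as scanned. The share of called genes that were higher in G200 was 30.8% with loess, 80.0% with median centring and 96.3% with no normalization. Aqp2, Aqp4, Slc14a2 and Slc5a3 turned positive under both, at 0.56, 0.43, 0.024 and 0.32 with median centring. Once the median of all genes is subtracted, median centring and no normalization give the same value and count as 1 check. Relative to that median, Aqp1 was higher by 0.42 to 0.90 over the alternatives and Aqp7 by 0.75 to 1.12. Slc14a2 was lower, with differences of -0.76 to -0.25, of which the smallest was that without loess, against -0.59 with it. Slc5a3 was between -0.43 and 0.05 and Aqp2 between -0.38 and 0.29, so neither kept its side. The differences from the median were not tested.

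**Figure D4:**
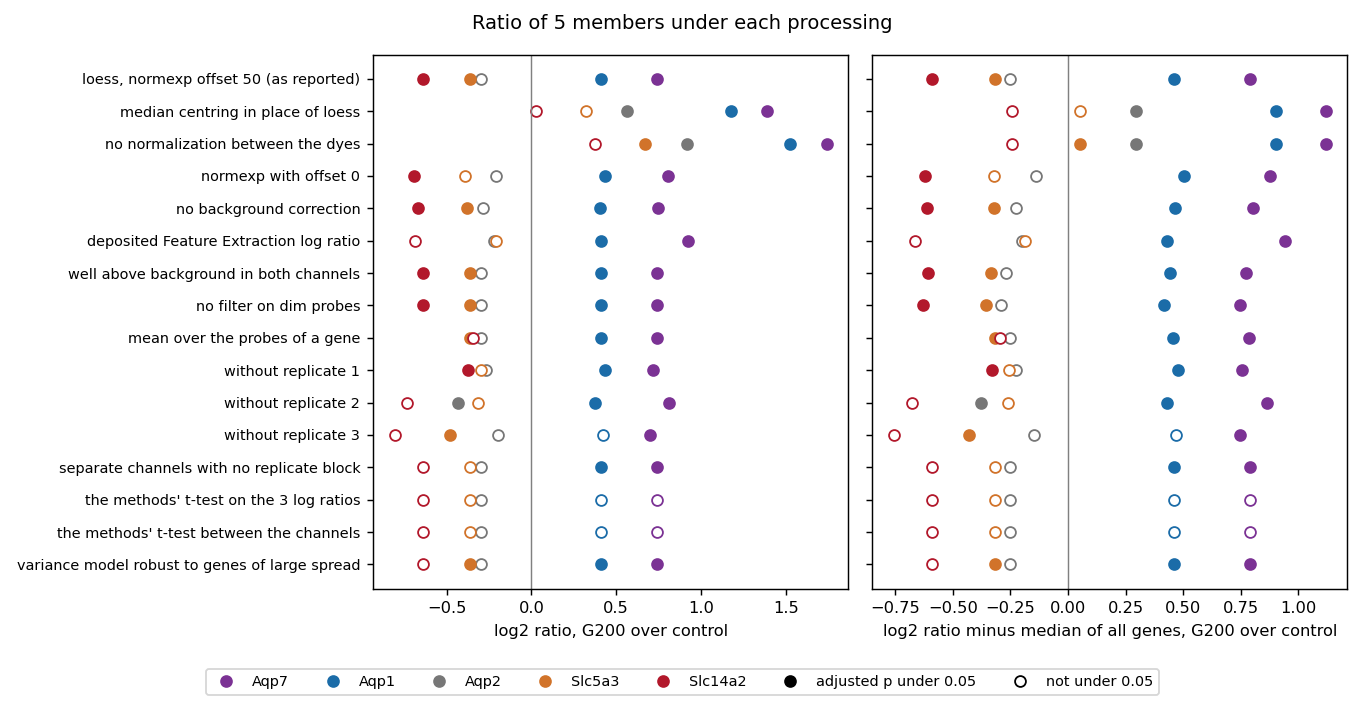
Log2 ratio of G200 over control of 5 members under each processing (left) and the same ratio minus the median of all genes (right), with filled symbols for an adjusted p under 0.05. Aqp1 and Aqp7 lie to the right of 0 in both panels, and Slc14a2 lies to the left of 0 throughout the right panel.

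Of the other aquaporins, 3 of 6 were tested. Of these, 1 was called higher and 1 lower, where 11.6% and 25.9% of all genes were. Aqp11, an intracellular aquaporin of the proximal tubule, had log2 ratios of 0.34, 0.57 and 0.26, and its mean of 0.39 ± 0.16 was called (adjusted p = 0.0144), but not without replicate 3 (0.46, adjusted p = 0.0596), and its adjusted p ran from 0.00644 to 0.16 over the alternatives. Aqp6, of intercalated cell vesicles, had a mean of 0.18 ± 0.17 (adjusted p = 0.139). Aqp9, a channel for glycerol and water known from liver, had ratios of -1.13, -1.93 and -2.47, a mean of -1.84 ± 0.67 (3.59-fold lower, adjusted p = 0.003). The size of this fall depended on the processing. It was -3.07 in the deposited log ratio and -1.09 with no normalization between the dyes. Aqp9 was called lower in 13 of 15 alternatives. Liver markers fell in the same order of arrays. All 7 tested were called lower, where 25.9% of all genes were, and their median was -3.07. The brightest, Alb, had ratios of -2.06, -3.73 and -5.67. The summed liver signal was 48260, 81100 and 88920 in the control channels and 14220, 7105 and 2660 in the G200 channels. Tat did not pass the filter. The part of these markers' source in the fall of Aqp9 was not tested. Aqp5, Aqp8 and Aqp12a did not pass the filter.

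Of 25 listed genes of vasopressin signalling and water channel trafficking, 18 were tested. Of these, 4 were called higher and 3 lower, where 11.6% and 25.9% of all genes were. Mal, a proteolipid of apical membrane sorting, had nearly equal ratios of 0.40, 0.41 and 0.40, with a mean of 0.40 ± 0.01 (adjusted p = 0.00581). Rab11a, a small GTPase of recycling vesicles, was called at 0.30 ± 0.15, Arhgdia, an inhibitor of small GTPases, at 0.25 ± 0.05 and Prkar2b, a regulatory subunit of protein kinase A, at 0.22 ± 0.06. The genes called lower were Arrb2, an arrestin that binds activated receptors, at -0.29 ± 0.14, Avpr1a, the vascular vasopressin receptor, at -0.29 ± 0.12 and well above background in 2 of the 3 G200 channels, and Prkaca, the catalytic subunit of protein kinase A, at -0.26 ± 0.14. The kinase subunit genes Prkacb, Prkar1a and Prkar2a were not called. Prkaca and Arrb2 turned positive under both other scalings of the dyes and Avpr1a with no normalization. Against the median of all genes Arrb2 lay between -0.36 and -0.031 over the alternatives, Avpr1a between -1.26 and -0.19 and Prkaca between -0.27 and 0.21. Adjusted p values of these 6 genes lay between 0.0272 and 0.0415. The call of Mal was lost without replicate 3 (adjusted p = 0.0606), those of Arrb2 and Avpr1a without replicate 2 or 3 and those of Rab11a, Arhgdia, Prkar2b and Prkaca without any one of the replicates, with adjusted p between 0.054 and 0.217 for the latter 6 genes where lost. The list had a median of 0.03. Avp, Adcy3, Akap7 and Nsf did not pass the filter, and Avpr1b, Adcy9 and Creb3 had no matched probe.

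Of 12 other urea and osmolyte genes, 7 were tested and none was called by limma's test, where 37.5% of all genes were. At an unadjusted p under 0.05, where 49.1% of all genes passed, limma's test passed 1 of them. This was Sord, sorbitol dehydrogenase, which turns sorbitol into fructose, at -0.23 ± 0.12 (adjusted p = 0.0549). The osmolyte carriers Slc6a6 (taurine) and Slc6a12 (betaine) had means of -0.19 ± 0.37 and -0.09 ± 0.10, and Slc5a11, a second myo-inositol carrier, had 0.17 ± 0.15. Slc14a1, the other urea carrier, did not pass the filter, and Pnpla6, Gdpd5, Hspa1a and Hspa1b had no matched probe. Over the 3 lists together, 9 of 28 genes tested were called, 5 higher and 4 lower, beside the 37.5% of all genes.

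**Figure D5:**
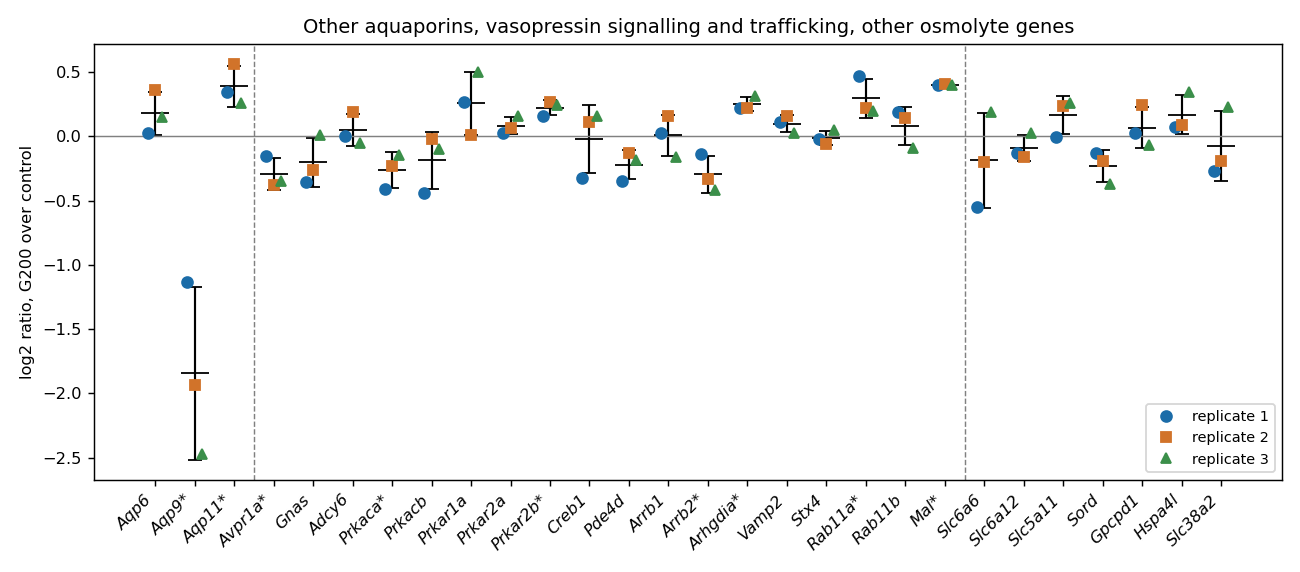
Log2 ratio of G200 over control (vertical axis) of the 28 tested genes of the 3 further lists, separated by dashed lines, on each array, with the mean and SD (n = 3) and asterisks for an adjusted p under 0.05. Aqp9 lies far below the rest at -1.84, and the other genes lie between -0.29 and 0.40 in their means.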

How the data were processed

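Total kidney RNA was hybridized to 3 Agilent arrays with 2 colours. The authors deposited the median spot and local background intensity of both colours, uncorrected, and a log10 ratio of red over green from Feature Extraction (version 11.5.1.1 per the file headers, 9.3.2.1 in the submitters' processing notes). Background was corrected with limma 3.58.1 in R 4.3.3 (normexp, offset 50), followed by loess between the dyes of each array. Control spots and spots with an outlier mark (635, 736 and 945) were left out, and replicate spots were averaged. A probe was kept if 1 colour, green or red, was well above background on every array (15649 of 30367), and the brightest probe stood for its gene. Of all probes, 18355 were matched to a symbol through the RefSeq table of GRCr8. On replicates 1, 2 and 3, the green signal was well above background in 59.8%, 62.7% and 62.3% of spots, the red signal in 63.0%, 56.6% and 61.0%. None was saturated, and the number of arrays limits the precision.

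The mean ratio was tested against 0 in a two-sided test (lmFit, eBayes), and p-values were adjusted over all genes by Benjamini-Hochberg. In this test the variance of each gene was moderated, that is, drawn toward that of all genes. Channel signals and their sums were taken after loess and Aquantile scaling. The control and G200 samples of a replicate number shared an array, and a fit without this block was an alternative. The steps were tested on simulated arrays. A limit first set there on the share of changed genes recovered was not met and was replaced by limits on bias, false calls and wrong signs, which were met.

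The members and lists were chosen with earlier results of these data known. Named were all members, the called genes of the further lists, their aquaporins and osmolyte carriers, and the brightest, highest and lowest gene of each marker list. Other genes without a value were named where they could not be tested. Results of some single genes of the marker lists are not reported here, and the counts, medians and sums include those tested.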

Additional observations from a re-analysis of the deposited data

How the results depend on the processing

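Without loess the directions changed most. Median centring gave 7 members called higher and 0 lower, with a member median of 0.62, where 35.2% of all genes were called higher. No normalization between the dyes gave 9 and 0, with a median of 0.97 and 18 pathway genes called in place of 9, where 56.5% of all genes were called higher. With the deposited Feature Extraction log ratio no member was called lower (0) and the member median was 0.18. The number of members called lower was 1 with normexp offset 0, with the mean over the probes of a gene and with the robust variance model. In the fit of separate channels with no replicate block it was 0, and 2 members were still called higher. The t-test of the log ratios and the methods' t-test between the channels called 0 members in either direction. They called 0 and 1 of the pathway genes, where 2 and 353 of 14179 genes were called. Leaving out 1 replicate gave 1 to 2 members higher, 1 to 2 lower and 1 to 5 pathway genes. The share of all genes called higher was 6.08%, 11.4% and 1.28% without replicates 1, 2 and 3, and that called lower 18.8%, 23.6% and 10.1%. The 2 called lower without replicate 2 were Aqp2 and Aqp4.

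Signs turned as follows. With median centring the ratios were 0.56 for Aqp2, 0.43 for Aqp4, 0.024 for Slc14a2, 0.32 for Slc5a3, 0.48 for Prkaca, 0.24 for Arrb2, 0.36 for Slc6a6, 0.19 for Slc6a12, 0.32 for Sord, 0.13 for Elf5, 0.65 for Miox, 0.30 for Krt19, 0.58 for Plvap, 0.14 for Pecam1, 0.49 for Hbb, 0.32 for Adipoq, 0.045 for Cidec and 0.37 for Cd68. With no normalization they were 0.91 for Aqp2, 0.79 for Aqp4, 0.37 for Slc14a2, 0.67 for Slc5a3, 0.066 for Avpr1a, 0.83 for Prkaca, 0.59 for Arrb2, 0.71 for Slc6a6, 0.54 for Slc6a12, 0.68 for Sord, 0.48 for Elf5, 0.34 for Slc4a1, 1.00 for Miox, 0.65 for Krt19, 0.25 for Synpo, 0.93 for Plvap, 0.49 for Pecam1, 0.84 for Hbb, 0.67 for Adipoq, 0.40 for Cidec, 0.72 for Cd68 and 0.23 for Csf1r. Adipoq was at 0.031 in the deposited log ratio. Among genes that were not called, leaving out 1 replicate turned the sign of some, with ratios from -0.021 to 0.22 for Akr1b1, -0.082 to 0.21 for Hsd11b2, -0.10 to 0.61 for Slc12a3, -0.031 to 0.014 for Synpo, -0.11 to 0.14 for Cryab, -0.66 to 0.031 for Hbb, -0.16 to 0.078 for Adipoq and -0.046 to 0.29 for Fabp4. The cause of these changes was not tested.

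Aqp1 was called higher in 12 of 15 alternatives and Aqp7 in 13, Slc14a2 lower in 5 and Slc5a3 in 6. Of the 15, 4 changed only the test and not the ratios. A random block for the slide was left out, since all arrays lay on 1 slide. Signal near background limits the dim probes, such as the only probe of Akr1b1 and the second probes of Slc14a2 and Nfat5.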

Other observations

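Markers of further kidney cells were followed beside the water and urea genes. In the thick ascending limb, which dilutes the tubular fluid and feeds the medulla with salt, 4 of 10 markers were called higher and 2 lower, where 11.6% and 25.9% of all genes were, with a median of 0.09. Umod, the brightest, encodes the main urinary protein and had log2 ratios of 0.98, 0.81 and 0.82 (mean 0.87 ± 0.10, adjusted p = 0.00101). The summed signal was 51050, 53360 and 53930 in the control channels and 74080, 72190 and 72340 in the G200 channels. Umod was the largest part of this sum, with a mean control log2 intensity of 14.78, against at most 13.28 for the others.

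In the distal convoluted tubule only Slc12a3, the thiazide-sensitive salt carrier, was tested, with ratios of 1.23, -0.0032 and -0.20, so that its mean of 0.34 ± 0.78 rested on replicate 1. Its signal was 397.2, 226.9 and 258 in the control channels and 930.3, 226.4 and 223.9 in the G200 channels. Of 7 intercalated cell markers tested, 1 was called higher and 1 lower, where 11.6% and 25.9% of all genes were. The higher was Atp6v0d2, a proton pump subunit, at 0.53 ± 0.20 (adjusted p = 0.00774). The lower was Slc4a1, the chloride and bicarbonate exchanger, at -0.68 ± 0.19 (adjusted p = 0.00348). Slc4a1 was the brightest of this list, is also made in red cells, and was below 0 on all arrays, but above 0 (0.34) with no normalization between the dyes. None of 3 immune markers was called by limma's test (37.5% of all genes) or had an unadjusted p under 0.05 (49.1% of all genes). The brightest, Cd68, was at -0.11 ± 0.09, the highest, Ptprc, at 0.10 ± 0.08 and the lowest, Csf1r, at -0.11 ± 0.07. The summed intercalated cell signal was 3431, 3290 and 3257 in the control channels and 3836, 3321 and 2789 in the G200 channels, and the summed immune signal was 442.1, 416.2 and 447 against 446.8, 393.2 and 429.2.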
